A study of Mus musculus with 18 samples.

Results

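The replication-dependent histone genes are the multicopy genes that encode the linker histone H1 and the core histones H2A, H2B, H3 and H4, named Hist1 to Hist4 after their chromosomal clusters. Rows of the deposited gene table were taken by name (Hist1h, Hist2h, Hist3h or Hist4h), which gave 71 of the table's 45706 rows. Of these, 67 had 10 or more counts in 6 or more of the 18 libraries and were kept, and all 67 were among the 14788 genes tested. They comprised 5 H1, 18 H2A, 19 H2B, 12 H3 and 13 H4 rows, or 52 genes of Hist1, 11 of Hist2, 3 of Hist3 and 1 of Hist4. The 4 rows left out were Hist1h1t, Hist1h2aa, Hist1h2ba and Hist1h2aj. A pair of rows is named Hist2h2bb. One is the protein-coding gene in GENCODE M21 (the coding row below), and the other is a long noncoding RNA there, Gm42743, that overlaps it on the same strand (the noncoding row). Hist3h2bb-ps carries a pseudogene name.

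The cells were BMC, an immortalized mouse brown preadipocyte line that the labels describe as differentiated brown adipocytes, used on day 7 after an induction cocktail at confluence. All 18 libraries therefore share the same line, cocktail and day. Of the labelled groups, 6 libraries at 0 h were not induced, and 6 at 4 h and 6 at 24 h received 1 µM norepinephrine, the adrenergic signal that starts lipolysis in brown fat. Titles number the libraries 1 to 6 within each time and the labels give a single batch. Nothing in the labels ties the libraries of a group to separate cultures. All p-values are relative to the spread among libraries, part or all of which may be technical.

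In the cell cycle, histone mRNAs are made in S phase, when new DNA is packaged, and are removed when replication stops. Most are the only mRNAs of animal cells without a poly(A) tail. They end instead in a conserved stem-loop that is bound by the protein encoded by Slbp, and the U7 small nuclear ribonucleoprotein directs the cut behind it. In cells that have left the cycle, replication-independent variants such as H3.3 and H1.0 take over part of the supply, and some histone genes also yield polyadenylated transcripts. Libraries were prepared from total RNA by depletion of ribosomal RNA, per the labels, so transcripts without a tail could be read. In bulk RNA, fewer cells in S phase and less histone RNA per cell cannot be told apart.

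The histone stem-loop pattern, searched on the sense strand, was found in annotated transcripts of 41 of the 65 members with a gene model in GENCODE M21 (mm10), against 0.355% of 21951 protein-coding genes. The hallmark sequence is shown for members on which the results turn, each with up to 5 flanking bases and the stem-loop in capitals.
Hist1h4n: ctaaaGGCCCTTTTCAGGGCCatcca
Hist1h4i: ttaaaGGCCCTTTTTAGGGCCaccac
Hist4h4: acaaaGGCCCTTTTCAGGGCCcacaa
Hist1h2bj: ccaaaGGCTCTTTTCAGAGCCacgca
Hist1h2bg: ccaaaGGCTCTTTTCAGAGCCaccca
Hist1h1e: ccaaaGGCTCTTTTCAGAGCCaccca
Hist2h2ac: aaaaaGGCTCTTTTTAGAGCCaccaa
Matches took 6 forms. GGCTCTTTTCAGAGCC was the commonest with 24 members, followed by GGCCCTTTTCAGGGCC with 7 and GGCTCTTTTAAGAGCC with 5. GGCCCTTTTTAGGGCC and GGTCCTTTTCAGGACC had 2 members each, and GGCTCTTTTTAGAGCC had 1. A polyadenylation signal (AATAAA or ATTAAA) lay in the last 50 bases of the annotated transcripts of 16 members, against 80.7% of protein-coding genes, and 12 members had both features. The pattern was not found in the models of 24 members, including Hist2h2be, Hist1h1a and the coding row of Hist2h2bb. Many histone models end at the stop codon or soon after, so a missing match says only that these letters are not in the annotated transcript.

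RefSeq promoters (GRCm38.p6, 250 bases before to 50 after the start) matched 57 members. The CCAAT box (CCAAT, both strands) lay in every matched promoter of H1 (5), H2A (16), H2B (14) and H3 (10) genes but in 3 of 12 of H4 genes, against 37.92% of 27025 promoters. The octamer ATTTGCAT, read by the factor that Pou2f1 encodes, lay in 6 of 16 H2A and 4 of 14 H2B promoters, in no matched H1, H3 or H4 promoter, and in 1.75% of all promoters. TATAAA lay in 57.9% of matched members against 14.16% of all promoters. As the region between the member with the largest fitted difference between number sets (described below), Hist2h2be, and its H2A neighbour Hist2h2ac, the Hist2h2ac window is shown (chr3:96220831-96221130, minus strand, 5′ to 3′), with matches to the 3 motifs on either strand in capitals.
Hist2h2ac promoter: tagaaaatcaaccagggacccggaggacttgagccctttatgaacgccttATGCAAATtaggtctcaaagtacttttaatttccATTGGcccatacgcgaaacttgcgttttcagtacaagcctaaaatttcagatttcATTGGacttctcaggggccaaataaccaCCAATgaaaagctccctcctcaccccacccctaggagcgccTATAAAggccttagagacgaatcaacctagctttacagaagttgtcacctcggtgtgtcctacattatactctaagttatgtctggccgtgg
The annotated starts of both genes lie 239 bases apart on opposite strands, so this window spans the interval between them. It is 1 of 12 such H2A and H2B pairs with starts within 500 bases.

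Near-identical copies limit what a single row can say. Over 52-base windows, the read length, a median of 49.7% of a member's transcript positions were unique among annotated transcripts. The share was 100% for Hist2h2be and Hist1h1a, 14.5% for Hist1h4n, 7.0% for Hist1h2ap and 0% for Hist2h2aa2 and Hist2h3c1. Of the members' nonzero expected counts, 90.6% were not whole numbers, against 27.4% over all genes, which shows how often reads were split between genes. Overlap on the same strand adds to this for 8 members: Hist1h1e with Hist1h2be, Hist3h2a with Trim17, Hist2h2aa1 and Hist2h3c1 with Gm20634, Hist1h2ac with Gm24991, and both Hist2h2bb rows with each other. On the opposite strand 22 members overlap a gene, among them Hist1h2ac, Hist2h2aa1, Hist3h2a and both Hist2h2bb rows of the first group. Whether counting used strand is not given in the sources used here. Values of these rows are uncertain to that extent, and sums over a histone type depend less on how reads were split.

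Library totals ran from 7010742 to 26501223 expected counts, and levels are given as CPM, counts scaled to a common library total after correction by the trimmed mean of M values (TMM). Before the results, it must be said that libraries went with their replicate number and not with their labelled time. The time labels may therefore be wrong, which was not tested, and if they are, a comparison of labelled times does not measure the response to norepinephrine. Each gene's share of the variance of log2 CPM that lay between numbers had a median of 72% over all tested genes. The share between times had a median of 3.78%. Over the members these medians were 52.8% and 5.93%. Number has more levels than time and takes a larger share even without a real difference, so these shares are not like for like. Libraries numbered 3 and 6, 2 and 5, and 1 and 4 resembled each other and are described below as sets 3+6, 2+5 and 1+4. The median share of variance between these sets was 62.7% over all tested genes but 29.4% over the members. The sets therefore order the histone genes less than they order the whole table. What the numbers stand for is not given in the labels, and these sets were proposed with results of these data known. A p-value between sets therefore compares their difference with the spread within sets and is no independent evidence of the grouping. The library labelled 24 h, number 5, had the smallest total and a scaling factor of 0.43, against 0.913 to 1.15 in the others. Histone rows took 0.261% of its counts, against 0.470 to 0.642% in the other 17 libraries.

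**Figure D1:**
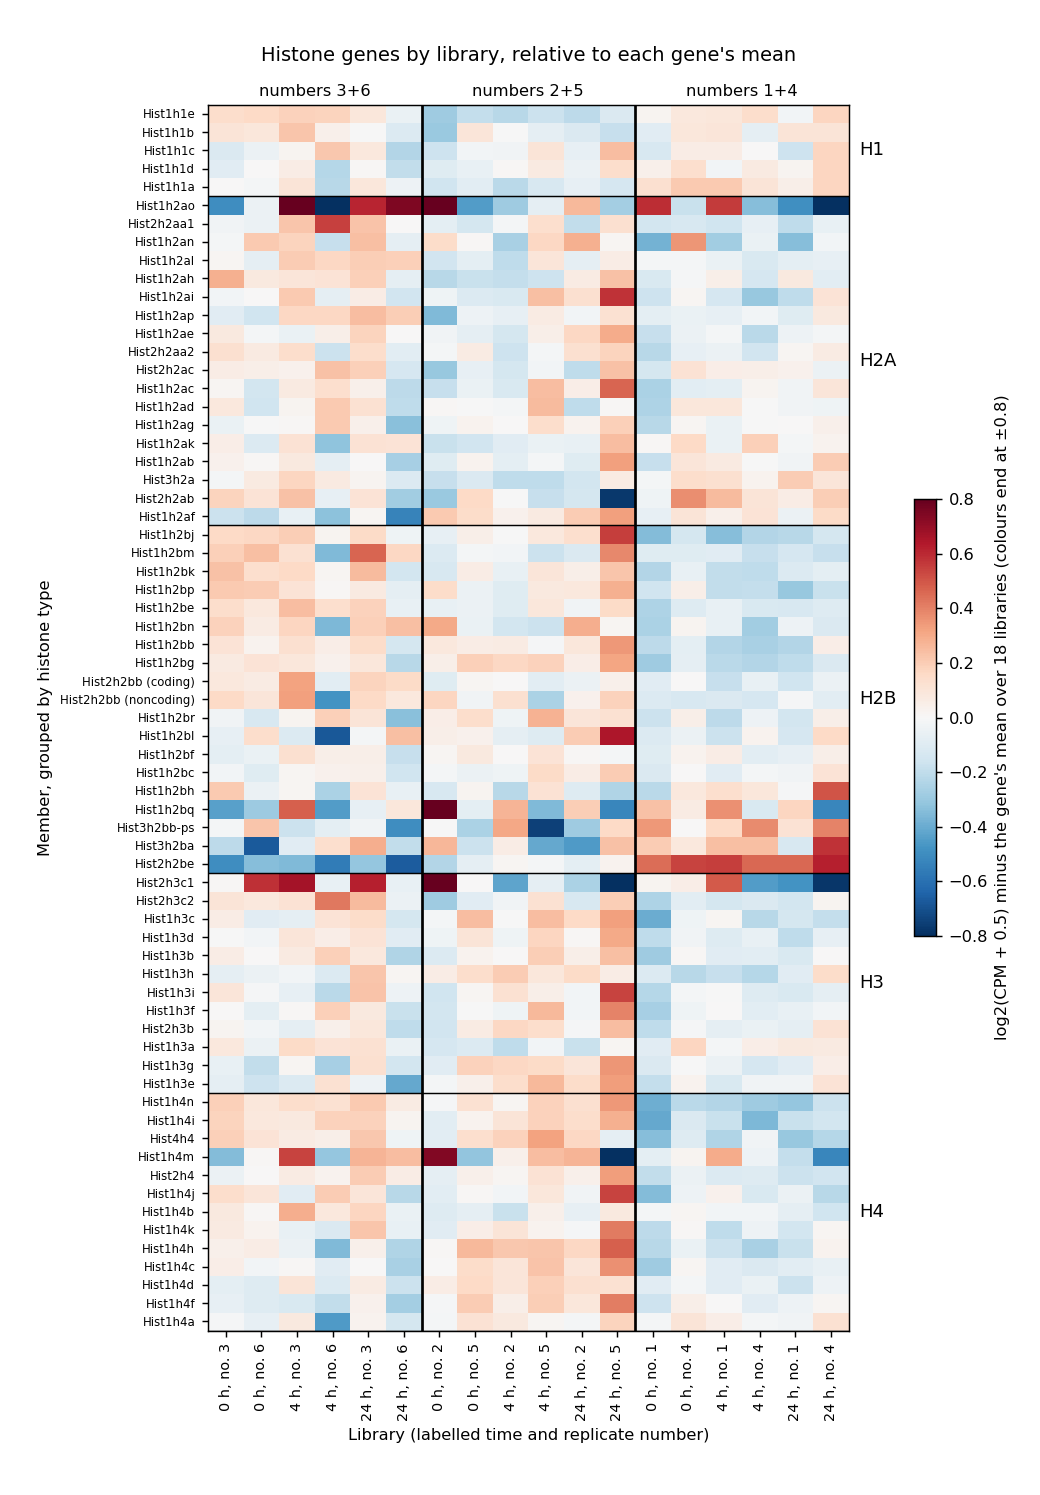
Each row is 1 of 67 histone genes, ordered within its type by the difference of set 3+6 from set 1+4, and each column 1 library; colour gives log2(CPM + 0.5) minus the gene's mean. Hist2h2be is the row with the clearest blocks by set, while columns within a set do not order by labelled time.

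H2A genes held 29.9% of the members' CPM, H3 genes 26.2%, H4 genes 21.8%, H2B genes 13% and H1 genes 9.14%. By cluster, Hist1 on chromosome 13 held 69.9% and Hist2 on chromosome 3 held 29.0%, while Hist3 on chromosome 11 held 0.727% and Hist4h4 on chromosome 6 held 0.288%. The highest mean level of each type was 175.1 CPM for Hist1h1c, 361.7 for Hist1h2ap, 119.4 for the coding row of Hist2h2bb, 442.2 for Hist2h3c2 and 226.9 for Hist1h4d. Per kilobase of the longest annotated transcript, Hist1h2ap was highest of all members at 750.5 CPM per kilobase, followed by Hist2h2aa2 at 579. The lowest per kilobase were Hist3h2ba at 0.829 and Hist3h2bb-ps at 1.22. Hist1 and Hist2 together held nearly all histone counts.

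Between labelled times no histone gene passed the test. At 4 h against 0 h, at 24 h against 0 h and at 24 h against 4 h, 0 of 67 members were called by edgeR's quasi-likelihood test at an adjusted p under 0.05, against 0% of all genes tested. At an unadjusted p under 0.05 there were 2, 1 and 3 members, against 1.17, 1.07 and 0.926% of all genes, and DESeq2 and limma-voom also called 0 members. The members' median log2 fold changes were 0.02, 0.05 and 0.02. In 60, 60 and 58 of the 67 members the 95% interval of the fold change lay within 0.5 of 0 on the log2 scale. Blocking on replicate number also gave 0 of 67 members in each comparison, against 0, 0.00676 and 0% of all genes, and the smallest blocked adjusted p of a member was 0.194, 0.0925 and 0.921. In the blocked fit 6, 10 and 5 members had an unadjusted p under 0.05, against 9.88, 7.81 and 5.12% of all genes.

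Members with the largest fold changes between times had overlapping groups. Hist1h2ap, a H2A gene, had 281.2, 339.6 and 349.8 CPM at 0 h (lowest, median, highest), 343.9, 366.0 and 403.7 at 4 h, and 337.2, 386.0 and 427.6 at 24 h. Its log2 fold change at 24 h against 0 h was 0.22 ± 0.07 (SE). Compared within replicate numbers, its 4 h library exceeded the 0 h library in 6 of 6 numbers and its 24 h library did so in 5 of 6. Other members also reached 6 of 6 against 0 h, some at 4 h and some at 24 h. With the number as a block the fold changes of Hist1h2ap were 0.17 ± 0.04 at 4 h (adjusted p = 0.194) and 0.22 ± 0.04 at 24 h (adjusted p = 0.0925). These were the smallest adjusted p of any member in both comparisons. Hist2h3c1, a H3 gene with no unique window, had 11.4, 11.7 and 22.2 CPM at 0 h, 8.22, 10.8 and 18.3 at 4 h, and 6.30, 8.74 and 17.8 at 24 h, with the largest negative fold change in all 3 comparisons (-0.49 ± 0.27 at 24 h against 0 h). The H2A gene Hist2h2aa1 had the largest positive one at 4 h against 0 h (0.22 ± 0.10), and the H2B gene Hist1h2bl at 24 h against 4 h (0.35 ± 0.12). In none of the 67 members were the 6 libraries of a time all above or all below those of another time, against 0.0676% of all genes at 4 h against 0 h, 0.0406% at 24 h against 0 h and 0% at 24 h against 4 h. A test of whether differences between times varied by set called 0 of 14788 genes and 0 members (edgeR, 415 genes and 0 members at an unadjusted p under 0.05).

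The CPM sum over all members averaged 5087.5 ± 253.2 in the 0 h libraries, 5300.1 ± 303.2 in the 4 h libraries and 5353.5 ± 465.3 in the 24 h libraries (SD, n = 6 each). The log2 differences were 0.059 for 4 h against 0 h and 0.071 for 24 h against 0 h, beside an SD of 0.073 among 0 h libraries. Under scaling by library totals, the sum at 24 h lay 0.17 below that at 0 h on the log2 scale, but 0.005 above it once the library labelled 24 h, number 5, was left out.

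**Figure D2:**
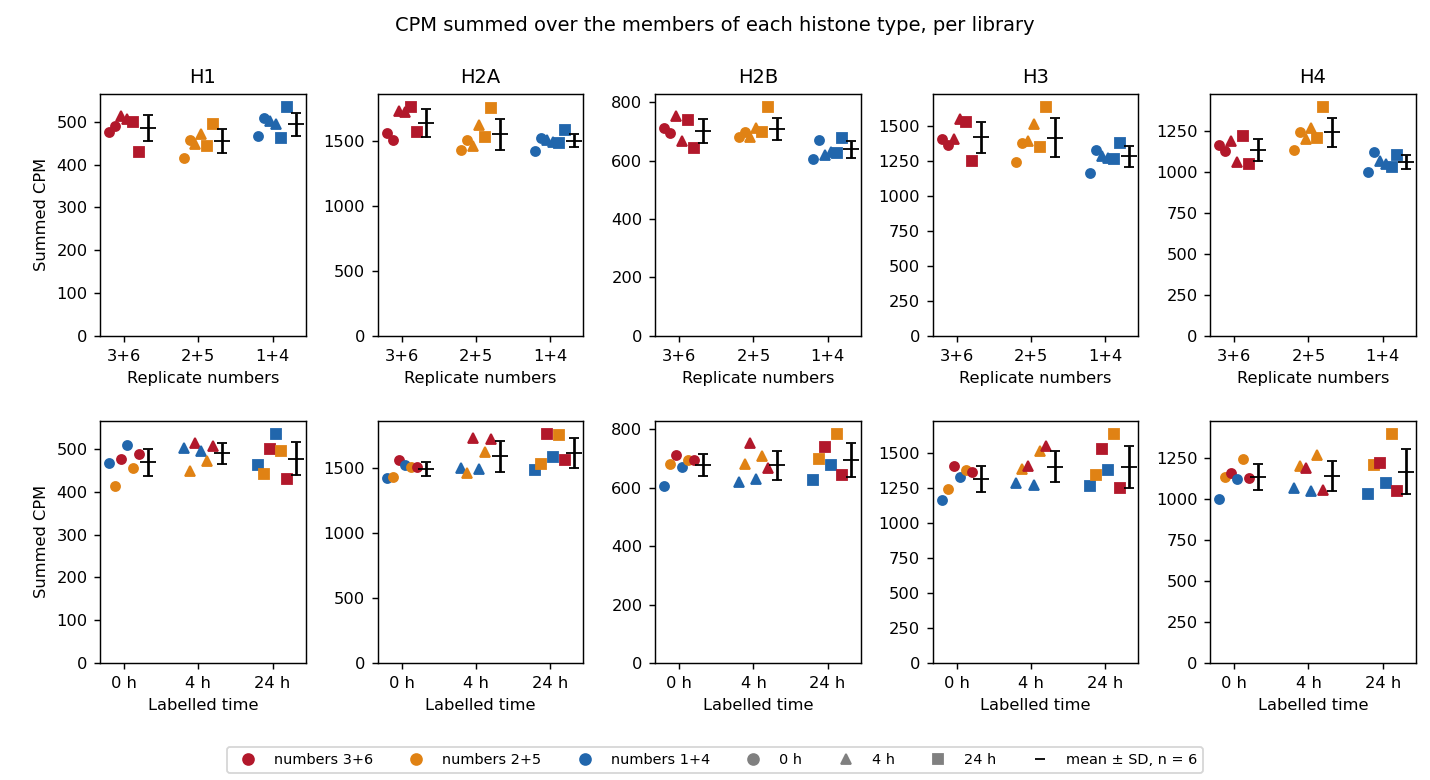
CPM summed over the members of each histone type, 1 point per library, by replicate-number set (upper row) and by labelled time (lower row), with mean ± SD (n = 6) beside the points. Mean sums of H2A, H2B, H3 and H4 are lowest in set 1+4 and that of H1 in set 2+5, while libraries of 3+6 and 1+4 overlap for every type. Sums at the 3 labelled times overlap for every type.

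Between number sets, both the share of histone genes called and the median absolute size of their change were below those of all genes tested. In set 3+6 against 1+4, 22 members were higher and 4 lower (38.8% of 67, against 59.7% of all genes tested, 30.2% higher and 29.5% lower). In 2+5 against 1+4, 22 were higher and 7 lower (43.3%, against 59.5% of all genes, 29.6% higher and 29.9% lower). In 3+6 against 2+5, 14 were higher and 9 lower (34.3%, against 57.1% of all genes, 28.6% higher and 28.5% lower). The 14 became 8 without number 3 at 24 h and 9 without number 2 at any 1 of the 3 times. The median absolute log2 fold change of members was 0.13, 0.16 and 0.11, against 0.24, 0.24 and 0.23 over all genes. The members' median fold change was 0.10, 0.12 and -0.01 on the log2 scale, where that of all genes was within 0.01 of 0. Groups did not overlap for 6 members in 3+6 against 1+4 (8.96%, against 38.6% of all genes), for 8 in 2+5 against 1+4 (11.9%, against 35.3%) and for 3 in 3+6 against 2+5 (4.48%, against 29.8%).

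The balance of higher and lower calls rested on the scaling. Scaled by library totals, 10 members were higher and 1 lower in 3+6 against 1+4, 0 and 1 in 2+5 against 1+4, and 15 and 0 in 3+6 against 2+5, with the median of all genes shifted to 0.17, -0.09 and 0.25 on the log2 scale. The lower member was Hist2h2be both times, so that every other call of 2+5 against 1+4 given below was lost under this scaling. With the library labelled 24 h, number 5, also left out, library totals gave 48 higher and 1 lower, 26 higher and 6 lower, and 25 higher and 2 lower, with all-gene medians of 0.16, 0.04 and 0.11. Relative to the all-gene median, the members' median was 0.10, 0.12 and -0.01 under TMM, 0.09, 0.11 and 0.01 under library totals, and 0.10, 0.10 and 0.02 with that library also left out. As a share of all counts, histone rows took 0.555, 0.599 and 0.642% in set 3+6 (lowest, median, highest), 0.261, 0.528 and 0.586% in set 2+5 and 0.470, 0.494 and 0.532% in set 1+4. The shares in sets 3+6 and 1+4 did not overlap, and the scaling factors were 1.10 to 1.15 in set 3+6 and 0.913 to 1.04 in set 1+4.

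**Figure D3:**
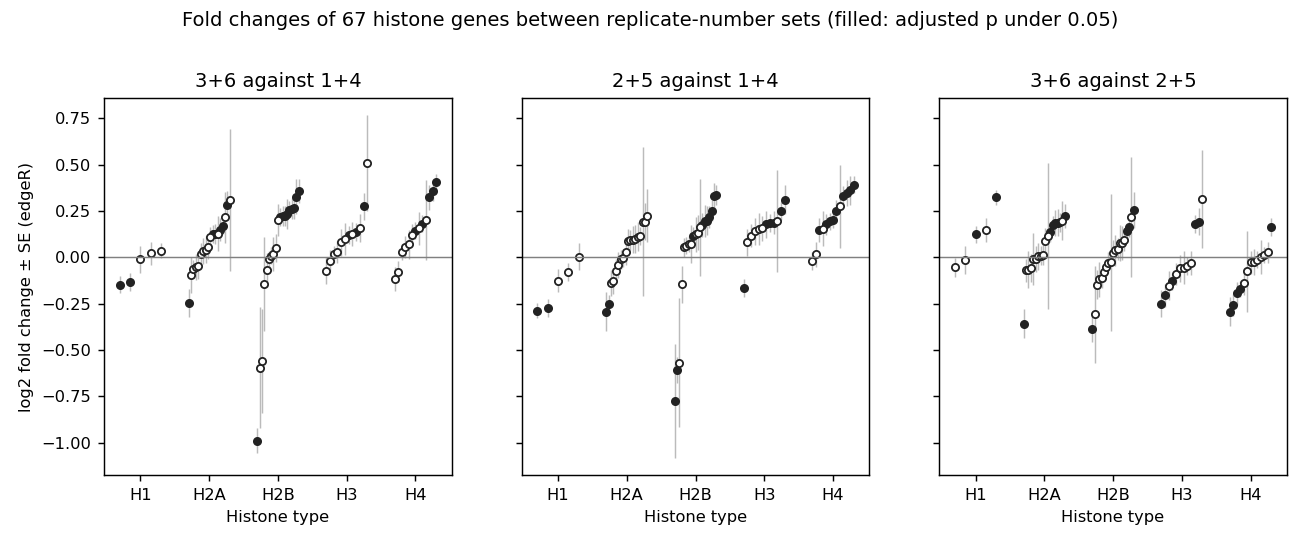
log2 fold change ± SE of each of the 67 members between number sets, by histone type, with called members filled. The lowest point among H2B genes in 3+6 against 1+4 is Hist2h2be at -0.99, and H4 genes have the most calls above 0 in 2+5 against 1+4.

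Linker histone genes encode the protein that sits where DNA enters and leaves the nucleosome. Of the 5, 2 were lower and 0 higher in 3+6 against 1+4 (40% called, against 59.7% of all genes, 30.2% higher). In 2+5 against 1+4, 2 were likewise lower and 0 higher (40%, against 59.5% of all genes, 29.6% higher). With 5 genes, the lack of higher calls cannot be read as a trait of H1. Hist1h1e, which encodes H1.4, was lower in set 2+5 than in both others. Its levels were 121.6, 140.1 and 143.4 CPM in set 3+6, 103.4, 109.9 and 116.4 in set 2+5 and 124.1, 134.2 and 142.5 in set 1+4. The 2+5 libraries lay below every other library, with log2 fold changes of -0.29 ± 0.04 for 2+5 against 1+4 (adjusted p = 8.7e-07) and 0.32 ± 0.04 for 3+6 against 2+5 (adjusted p = 1.3e-07). Hist1h1a, which encodes H1.1, had 40.6, 47.1 and 50.9 CPM in set 3+6, 40.7, 43.2 and 45.3 in set 2+5 and 49.0, 52.6 and 54.7 in set 1+4. It fell by 0.27 ± 0.05 in 2+5 against 1+4 (adjusted p = 1.7e-05) and by 0.15 ± 0.05 in 3+6 against 1+4 (adjusted p = 0.0063), although the value for 3+6 was 0.01 under library totals. Hist1h1d had 61.0, 69.3 and 74.5 CPM in set 3+6, 66.7, 70.5 and 78.9 in set 2+5 and 70.4, 74.2 and 80.6 in set 1+4. It fell by 0.13 ± 0.05 in 3+6 against 1+4 (adjusted p = 0.020). The call was lost under library totals (0.02) and without number 4 at 0 h or 24 h or number 6 at 4 h or 24 h (-0.115 to -0.095). The most abundant H1 gene, Hist1h1c, did not pass the test between any sets, with log2 fold changes of -0.01 ± 0.07 and 0.00 ± 0.07 against 1+4.

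H2A genes, which encode the histone that binds H2B in a dimer, had 6 calls of 18 in 3+6 against 1+4 (33.3%, against 59.7% of all genes) and 2 in 2+5 against 1+4 (11.1%, against 59.5%). In 2+5 against 1+4 none was higher and Hist2h2ab and Hist3h2a were lower, while in 3+6 against 1+4, 5 were higher and Hist1h2af was lower. Hist1h2af had 29.2, 37.1 and 42.9 CPM in set 3+6, 43.6, 48.0 and 53.4 in set 2+5 and 40.5, 44.7 and 47.2 in set 1+4. All 3+6 libraries lay below all 2+5 libraries (-0.36 ± 0.08, adjusted p = 0.00084), but under library totals the difference was -0.10 and did not pass. A pair of near-identical genes of Hist2, Hist2h2aa1 and Hist2h2aa2, had medians of 329 and 327 CPM in set 3+6, 294 and 310 in set 2+5 and 276 and 293 in set 1+4. In 3+6 against 1+4 Hist2h2aa1 rose by 0.28 ± 0.07 (adjusted p = 0.0023), and Hist2h2aa2 had 0.11 ± 0.06 and did not pass. Of their windows 10.7% and 0% were unique, so how reads were split between the copies bears on both values.

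Other H2A members of Hist2 and Hist3 moved by 0.3 or less. Hist2h2ac, which shares its promoter region with Hist2h2be, had 45.9, 52.3 and 59.5 CPM in set 3+6, 40.7, 46.9 and 59.3 in set 2+5 and 45.7, 51.8 and 54.7 in set 1+4. The sets overlapped, and its log2 fold change was 0.19 ± 0.07 in 3+6 against 2+5 (adjusted p = 0.027) and 0.06 ± 0.07 in 3+6 against 1+4. Hist2h2ab had 5.80, 7.75 and 8.48 CPM in set 3+6, 3.98, 6.33 and 8.05 in set 2+5 and 6.97, 7.99 and 9.40 in set 1+4, and its call in 2+5 against 1+4 (-0.29 ± 0.10, adjusted p = 0.018) was lost without number 2 or 4 at 0 h or number 5 at 4 h (-0.257 to -0.223). Hist3h2a, whose model lies wholly within Trim17, fell by 0.25 ± 0.05 in 2+5 against 1+4 (adjusted p = 0.00011). It had 34.0, 38.0 and 41.5 CPM in set 3+6, 31.8, 32.7 and 38.5 in set 2+5 and 36.4, 39.8 and 42.4 in set 1+4. Hist1h2ah rose by 0.22 ± 0.07 in 3+6 against 2+5 (adjusted p = 0.0048).

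Hist2h2be had the lowest p among H2B genes in all 3 set comparisons. This gene (ENSMUSG00000068854, chr3:96221119-96223738, plus strand, mm10) encodes an H2B variant best known from mouse olfactory neurons, its windows are all unique, and its model ends in a polyadenylation signal with no stem-loop match. It had 6.36, 7.63 and 8.31 CPM in set 3+6, 8.78, 10.1 and 10.6 in set 2+5 and 14.4, 14.9 and 16.3 in set 1+4. No library of a set overlapped with another set. The log2 fold changes were -0.99 ± 0.07 for 3+6 against 1+4 (adjusted p = 8.2e-13), -0.61 ± 0.07 for 2+5 against 1+4 (adjusted p = 2.1e-08) and -0.38 ± 0.07 for 3+6 against 2+5 (adjusted p = 7.8e-05). Under library totals the last value was -0.16 and lost the call (adjusted p = 0.47), while 3+6 against 1+4 had -0.84 and 2+5 against 1+4 had -0.68 and both passed. By labelled time it had 7.21, 9.33 and 15.4 CPM at 0 h, 6.91, 10.4 and 15.5 at 4 h and 6.36, 10.2 and 16.3 at 24 h, so each time spanned the same range.

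The other H2B genes that passed the test against set 1+4 rose, except the pseudogene Hist3h2bb-ps. In 3+6 against 1+4, 9 of 19 H2B rows were higher (30.2% of all genes were), led by Hist1h2bj (0.36 ± 0.06, adjusted p = 5.6e-05) and Hist1h2bm (0.33 ± 0.10), and in 2+5 against 1+4, 8 were higher (29.6% of all genes), led by Hist1h2bg (0.34 ± 0.05, adjusted p = 1.6e-05). Hist1h2bj had 44.3, 50.7 and 52.1 CPM in set 3+6, 43.5, 47.6 and 66.96 in set 2+5 and 35.6, 38.7 and 41.2 in set 1+4. Every library of 3+6 and 2+5 lay above every library of 1+4. Hist1h2bg had 70.8, 87.6 and 89.3 CPM in set 3+6, 85.6, 93.6 and 103.1 in set 2+5 and 67.8, 71.5 and 78.8 in set 1+4, so that only 2+5 was clear of 1+4. Hist1h2bm, which has no model in GENCODE M21, had medians of 6.26, 5.22 and 5.02 CPM in sets 3+6, 2+5 and 1+4. Its call in 3+6 against 2+5 (0.26 ± 0.10, adjusted p = 0.030) was lost without number 2 or 6 at 0 h, 3 or 5 at 4 h, or 2 or 3 at 24 h (0.194 to 0.249). The coding row of Hist2h2bb had 112.4, 129.2 and 149.1 CPM in set 3+6, 111.1, 117.1 and 122.3 in set 2+5 and 104.6, 112.8 and 119.3 in set 1+4 (0.22 ± 0.05 for 3+6 against 1+4), and the noncoding row did not pass between any sets. Hist3h2ba and Hist3h2bb-ps stayed below 1 CPM in every library. The pseudogene's call in 2+5 against 1+4 (-0.77 ± 0.31, adjusted p = 0.033) was lost without number 1 or 5 at 0 h, 4 or 5 at 4 h, or 2 or 4 at 24 h (-0.75 to -0.535).

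H3 genes, whose products with H4 form the centre of the nucleosome, had 3 calls of 12 in 3+6 against 1+4 (25%, against 59.7% of all genes) and 6 in 2+5 against 1+4 (50%, against 59.5%). In 3+6 against 1+4, all 3 were higher, against 30.2% of all genes, and in 2+5 against 1+4, 5 were higher, against 29.6%, and Hist1h3a was lower. Hist2h3c2, the most abundant histone row, had 424.4, 472.7 and 587.8 CPM in set 3+6, 360.2, 421.4 and 503.9 in set 2+5 and 369.4, 402.1 and 445.4 in set 1+4. The sets overlapped, and it rose by 0.28 ± 0.07 in 3+6 against 1+4 (adjusted p = 0.0030) and by 0.19 ± 0.07 in 3+6 against 2+5 (adjusted p = 0.030), the second of which was lost without number 2 at any time, 3 at 0 h or 24 h, or 6 at 0 h or 4 h (0.142 to 0.189). Hist1h3e had 57.3, 71.7 and 82.9 CPM in set 3+6, 75.4, 84.4 and 96.5 in set 2+5 and 66.7, 74.8 and 82.2 in set 1+4, and was lower in 3+6 than in 2+5 (-0.25 ± 0.07, adjusted p = 0.0088). That value was 0.03 under library totals. Of the other H3 genes of Hist2, Hist2h3b had medians of 143.7, 154.4 and 137.9 CPM and Hist2h3c1 of 14.4, 10.1 and 9.90 CPM in sets 3+6, 2+5 and 1+4, and neither passed the test between any sets.

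H4 genes, which encode almost the same protein, were the type with the largest share of calls in 2+5 against 1+4. There 9 of 13 were higher and none lower, against 29.6% of all genes higher, and in 3+6 against 1+4, 5 were higher and none lower, against 30.2%. Hist1h4n (ENSMUSG00000069305, chr13:21831767-21832196, minus strand, mm10) had 148.6, 155.3 and 164.0 CPM in set 3+6, 140.8, 154.5 and 180.3 in set 2+5 and 108.1, 118.3 and 125.8 in set 1+4. No library of 1+4 reached the lowest of the other sets. It rose by 0.41 ± 0.04 in 3+6 against 1+4 (adjusted p = 8.9e-09) and by 0.39 ± 0.05 in 2+5 against 1+4 (adjusted p = 2.6e-08), although the value for 2+5 was 0.275 and did not pass under library totals. Hist1h4i showed the same order with 25.3, 27.4 and 28.4 CPM in set 3+6, 23.5, 27.2 and 30.5 in set 2+5 and 18.7, 22.0 and 23.0 in set 1+4. Its log2 fold changes were 0.36 ± 0.06 and 0.33 ± 0.06 against 1+4. Hist4h4, the only gene of its cluster, had 14.6, 15.96 and 17.5 CPM in set 3+6, 14.1, 16.7 and 18.9 in set 2+5 and 11.7, 12.7 and 14.7 in set 1+4 (0.32 ± 0.07 and 0.35 ± 0.07).

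In 3+6 against 2+5, 4 of 13 H4 genes were lower and 1 higher (38.5% called, against 57.1% of all genes, 28.5% lower and 28.6% higher). No member was lower under library totals. Hist1h4h had 107.5, 136.9 and 142.9 CPM in set 3+6, 138.3, 159.8 and 191.3 in set 2+5 and 114.7, 121.4 and 139.9 in set 1+4. It fell by 0.29 ± 0.08 in 3+6 against 2+5 (adjusted p = 0.0044) and rose by 0.36 ± 0.08 in 2+5 against 1+4 (adjusted p = 0.00083). Hist1h4f fell by 0.26 ± 0.06 in 3+6 against 2+5 (adjusted p = 0.00068), a value that was 0.01 under library totals. The most abundant H4 gene, Hist1h4d, had 200.6, 212.6 and 242.9 CPM in set 3+6, 235.7, 246.9 and 257.9 in set 2+5 and 200.9, 215.4 and 223.5 in set 1+4, with 2+5 clear of 1+4 (0.20 ± 0.04, adjusted p = 0.00020). Hist2h4 had medians of 106.7, 106.5 and 94.4 CPM in sets 3+6, 2+5 and 1+4 and rose in both sets against 1+4 (0.18 ± 0.04 and 0.20 ± 0.05).

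Summed by type, the largest log2 difference under TMM was that of H4 in 2+5 against 1+4. H4 sums averaged 1132.3 ± 69.5 CPM in set 3+6, 1239.9 ± 87.6 in set 2+5 and 1060.5 ± 43.7 in set 1+4 (SD, n = 6 each), and all 2+5 libraries lay above all 1+4 libraries. The log2 difference of 2+5 against 1+4 was 0.22, against an SD of 0.06 among 1+4 libraries. H2B sums averaged 701.7 ± 41.4, 708.3 ± 38.0 and 638.0 ± 29.1 CPM in sets 3+6, 2+5 and 1+4, with no library of 2+5 under the highest of 1+4. H3 sums averaged 1420.2 ± 110.4, 1419.7 ± 137.9 and 1284.2 ± 71.9 CPM and H2A sums 1642.5 ± 108.3, 1554.2 ± 119.1 and 1504.7 ± 52.1 CPM in the same sets. H1 sums averaged 485.4 ± 29.9, 454.9 ± 27.5 and 494.6 ± 27.1 CPM, the one type lower in 2+5 than in 1+4 (log2 difference -0.12). Under library totals the sums of H2B and H3 in 2+5 against 1+4 turned to -0.012 and -0.021, and that of H4 in 3+6 against 2+5 was 0.194, where it was -0.13 under TMM. With the library labelled 24 h, number 5, also left out, the H4 difference of 2+5 against 1+4 was 0.24, and all 5 types were higher in 3+6 than in 1+4 by 0.14 to 0.31, H1 included.

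Numbers 1 to 3 and numbers 4 to 6 share no library, so each comparison of sets could be made in separate libraries. The sets, however, were formed because their numbers resembled each other in these same data. These comparisons also came from the same fit over all 18 libraries. Agreement between numbers 1 to 3 and numbers 4 to 6 is therefore partly built in and is not independent replication. For 2 against 1, 18 members were higher and 6 lower (of all genes 23.5% higher and 24.4% lower), and for 5 against 4, 17 and 6 (23% and 22.5%). Fold changes had the same sign in 59 of 67 members, and 12 were higher and 5 lower by the test in both. For 3 against 1, 29 members were higher and 1 lower (24.8% and 25.1%), whereas for 6 against 4, 6 were higher and 10 lower (23.9% and 24.1%), with the same sign in 38 of 67. For 3 against 2, 19 were higher and 2 lower (23.8% and 23.3%), and for 6 against 5, 1 was higher and 19 lower (20.7% and 22.4%), with the same sign in 34. No member was called in opposite directions in any of the 3 comparisons. How many of all genes had the same sign, or were called in the same or in opposite directions, was not counted. Shared signs and shared calls therefore cannot be read as a trait of histone genes. Numbers within a set differed too. The members' median log2 fold change was -0.13 for 6 against 3, with 3 of 67 above 0, 0.10 for 5 against 2, with 55 above 0, and 0.08 for 4 against 1, with 55 above 0. No member was called in any of them (0, 0 and 0.00676% of all genes), and 18, 16 and 7 had an unadjusted p under 0.05, against 11.7, 5.99 and 2.91% of all genes.

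By name, Hist2h2be was lower in all 6 of these comparisons, with -0.91 ± 0.09 for 3 against 1 and -1.09 ± 0.10 for 6 against 4. Hist1h4n, Hist1h4i, Hist1h2bj, Hist1h2be, Hist1h2al and Hist2h3c2 were higher in both 3 against 1 and 6 against 4. Hist1h1e was lower in 2 against 1 (-0.27 ± 0.05) and in 5 against 4 (-0.30 ± 0.05), and higher in 3 against 2 and in 6 against 5. Hist1h2af and Hist2h2be were the members lower in both 3 against 2 and 6 against 5.

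**Figure D4:**
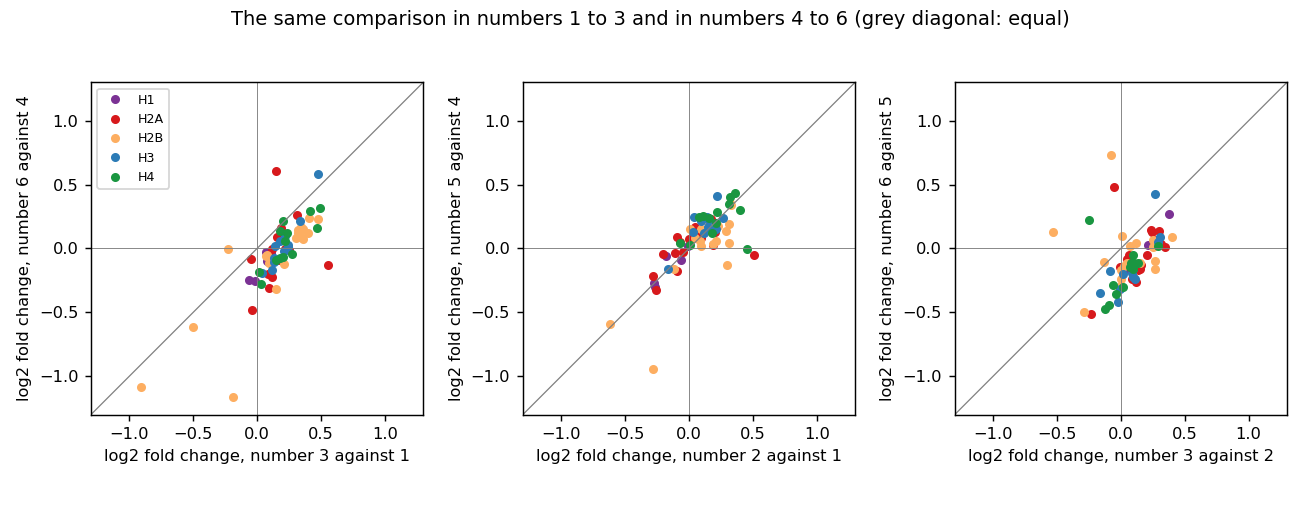
log2 fold change of each member in numbers 4 to 6 (vertical) against that in numbers 1 to 3 (horizontal) for the same comparison of sets, coloured by histone type; points on the grey diagonal changed equally. For 2+5 against 1+4 points lie near the diagonal, with 59 of 67 of the same sign, and for the comparisons with 3+6 most lie below it.

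H2A and H2B genes that share a promoter region were compared as pairs. Of the 12 pairs, 8 had fold changes of the same sign in 3+6 against 1+4, 9 in 2+5 against 1+4 and 5 in 3+6 against 2+5. Hist1h2ag and Hist1h2bj, whose starts lie 270 bases apart, had 0.02 and 0.36 in 3+6 against 1+4. Hist2h2ac and Hist2h2be had 0.06 and -0.99. Members were also grouped by a stem-loop anywhere in the annotated transcript and by a polyadenylation signal near its end. The stem-loop lay 3 bases before the annotated end in Hist1h2ap but 4884 in Hist1h1d. Members with a stem-loop and no signal (29) had a median of 0.11 in 3+6 against 1+4 and 0.14 in 2+5 against 1+4. The 20 members with neither had 0.063 and 0.115, and the 16 members with a signal 0.10 and 0.16. Hist2h2be was the 1 lower call among these 16 in 3+6 against 1+4, where 6 were higher.

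Genes of histone supply and 3′ end processing changed in both directions. Counts of this and the following lists stand beside 30.2% of all genes higher and 29.5% lower in 3+6 against 1+4, and 29.6% higher and 29.9% lower in 2+5 against 1+4. Of 22 tested, 8 were higher and 4 lower in 3+6 against 1+4 and likewise 8 and 4 in 2+5 against 1+4, with medians of 0.04 and 0.10. Slbp, whose product binds the stem-loop, had fold changes of 0.00 ± 0.04 in 3+6 against 1+4 and -0.10 ± 0.04 in 2+5 against 1+4, the second of which passed the test (adjusted p = 0.029). Npat, the S phase activator of histone transcription, did not pass between any sets (0.03 ± 0.04 and -0.05 ± 0.04 against 1+4). Casp8ap2, needed for histone 3′ processing, was lower in 2+5 than in 1+4 (-0.16 ± 0.04). Lsm11, a subunit of the U7 particle, rose by 0.40 ± 0.08 and 0.73 ± 0.09 in 3+6 and 2+5 against 1+4, with 8.68 to 12.3 CPM in 3+6, 8.95 to 15.5 in 2+5 and 7.83 to 8.57 in 1+4. Ncbp2, of the cap-binding complex, rose by 0.44 ± 0.05 and 0.29 ± 0.05, and Pou2f1 fell by 0.29 ± 0.05 in 3+6 against 2+5.

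Of 14 genes of histone mRNA decay, 4 were higher and 2 lower in 3+6 against 1+4 and 7 and 3 in 2+5 against 1+4. Upf1, the helicase that starts this decay when replication stops, rose by 0.42 ± 0.04 in 3+6 and 0.30 ± 0.04 in 2+5 against 1+4, with 125.3 to 145.7 CPM in 3+6, 117.0 to 134.7 in 2+5 and 93.7 to 106.0 in 1+4, without overlap with 1+4. Prkdc, a DNA damage kinase, fell by 0.41 ± 0.05 in 2+5 against 1+4. Histone chaperones included 12 higher and 3 lower of 19 in each set against 1+4, with medians of 0.14 and 0.13. Npm1 (0.56 ± 0.04 and 0.42 ± 0.04), Nap1l1 (0.48 ± 0.04 and 0.22 ± 0.04) and the importin Ipo4 (0.69 ± 0.04 and 0.24 ± 0.04) rose in both, while Asf1b, which hands newly made H3 and H4 to replicating chromatin, fell by 0.44 ± 0.04 and 0.68 ± 0.05.

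Replication-independent histone variants had more lower than higher calls against set 1+4. Of 11, 1 was higher and 6 lower in 3+6 against 1+4 and 2 and 6 in 2+5 against 1+4, with medians of -0.17 and -0.15. H1f0, the linker histone of resting cells, had 193.3 to 227.5 CPM in set 3+6, 127.2 to 149.2 in 2+5 and 300.0 to 323.4 in 1+4, and fell by 0.57 ± 0.04 and 1.20 ± 0.04. H3f3b, which encodes H3.3, fell by 0.47 ± 0.04 and 0.42 ± 0.04, whereas H3f3a, which encodes the same protein, had -0.05 ± 0.04 and 0.13 ± 0.04. H2afz fell by 0.38 ± 0.04 and 0.20 ± 0.05 and H1fx by 0.23 ± 0.09 and 0.47 ± 0.10. H2afx did not pass the test between any sets, and H2afy2, which encodes a macroH2A, rose by 1.20 ± 0.10 in 3+6 but fell by 0.43 ± 0.12 in 2+5 against 1+4.

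Of the cell cycle genes, those of G2 and mitosis counted 15 of 18 lower in 3+6 and 13 lower in 2+5 against 1+4 and none higher, where 29.5 and 29.9% of all genes were lower (medians -0.23 and -0.26). Mki67, a marker of cycling cells, had 607.5 to 648.2 CPM in set 3+6, 580.1 to 635.9 in 2+5 and 914.1 to 970.8 in 1+4 and fell by 0.57 ± 0.04 and 0.66 ± 0.04. S phase genes changed in both directions, with 5 of 33 higher and 11 lower in 3+6 against 1+4 and 13 higher and 9 lower in 2+5 against 1+4 (medians 0.00 and 0.06). Mcm6, of the replicative helicase, rose by 0.24 ± 0.03 and 0.32 ± 0.03, and Ccne1, the cyclin of S phase entry, fell by 0.39 ± 0.07 and 0.60 ± 0.08. Ccne2 fell by 0.30 ± 0.06 in 3+6 and had 0.03 ± 0.06 in 2+5 against 1+4. A mixed list of CDK inhibitors, exit genes and D-type cyclins had 17 genes. Against 1+4, 5 of them were higher and 11 lower in 3+6, and 8 and 8 in 2+5. Among them were Btg2 (-3.09 ± 0.14 and -2.88 ± 0.14) and Gadd45a (-2.08 ± 0.06 and -0.72 ± 0.05). Ccnd1, a cyclin gene of this list and not an inhibitor, rose by 2.92 ± 0.26 and 1.24 ± 0.32. The medians of the histone genes in the same comparisons were 0.10 and 0.12. Between labelled times, 0 genes of any of these lists were called.

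Markers of other cell states moved with the sets as well. All 8 brown adipocyte markers were detected, with 2 higher and 3 lower in 3+6 and 3 and 4 in 2+5 against 1+4 (medians -0.018 and -0.138). In 3+6 against 2+5, 4 were higher and 2 lower (median 0.16), against 28.6% and 28.5% of all genes. These markers thus did not move in 1 direction. Ucp1, the uncoupling protein of brown fat, had 1.08 to 2.65 CPM in set 3+6, 9.35 to 10.9 in 2+5 and 12.7 to 18.03 in 1+4. Of the 5 tested preadipocyte or fibroblast markers, 5 were higher in 3+6 and 4 in 2+5 than in 1+4, such as Pdgfra with 122.8 to 166.8, 79.4 to 125.0 and 56.7 to 66.3 CPM in sets 3+6, 2+5 and 1+4. Of 4 macrophage markers only Cd68 had enough counts to be tested and was not called, and none of the 3 endothelial markers had. The part of these differences in those of the histone genes was not tested.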

How the data were processed

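Gene expression was measured by RNA sequencing of 18 libraries. The authors deposited 1 table of expected counts per gene, made with salmon per the labels and on mm10 per the submitters' processing notes, which also name edgeR and limma without versions. Versions of salmon and of its annotation were not given in the sources used here. Before testing, expected counts were rounded and genes were filtered with filterByExpr (minimum count 10, minimum total 15), scaled by TMM and tested with edgeR 4.0.16 (robust quasi-likelihood, R 4.3.3, limma 3.58.1), with Benjamini-Hochberg adjustment over all 14788 genes and a threshold of 0.05. Models held time alone, time and number set, or time and replicate number, over all 18 libraries. DESeq2 1.42.0, limma-voom, other scalings, no filter, rounding down and leaving out single libraries were alternatives.

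Libraries with the same number deviated together from their group means (correlations 0.297 to 0.718 over 18 pairs of libraries and all tested genes), so a replicate block was fitted; over the members alone they ran from -0.292 to 0.744. Libraries of the same set but another number had a median correlation of 0.569 over all tested genes, and those with the same number 0.59. Over the members these medians were 0.239 and 0.362. In data simulated for 4 h against 0 h over 14658 genes, the fit with time alone recovered 54% of genes changed by 0.5 and 92% of those changed by 1 on the log2 scale. The blocked fit recovered 95% and 100% with 12 unchanged genes called. Changes were placed only in genes with a mean above 5 CPM, and reads shared between copies were not simulated. These rates therefore do not cover members of low level such as Hist3h2ba (mean 0.509 CPM), nor the splitting of reads between copies. Members, sets and gene lists were chosen with earlier results of these data known. The text names the most abundant member of each type, up to 5 called members with the largest rise and fall per set comparison, the extreme members per time comparison, every member of Hist2, Hist3 and Hist4, fixed list genes, and up to 3 called genes per list and comparison where they add to the account. Hist1h2be, Hist1h2al, Hist1h2ag and Hist1h3a were named after their values were seen. Sequences are from RefSeq (GRCm38.p6) and GENCODE M21.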

Additional observations from a re-analysis of the deposited data

Results flagged for a closer look

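Over 42 sums and members, each in 6 groups of 6 libraries, 11 of 252 groups held 1 library whose gap to its nearest neighbour was large for the group's range; by chance about 1 in 20 groups would. The library labelled 24 h, number 5, the one poor in counts, was highest of set 2+5 for 5 of these: the H2B sum (782.3 CPM, others 680.5 to 709.8), the Hist3 sum (39.8, others 32.3 to 34.7), Hist1h2bj (66.96, others 43.5 to 49.9), Hist1h2bm (7.29, others 4.82 to 5.42) and Hist3h2a (38.5, others 31.8 to 33.9). The library labelled 4 h, number 6, was lowest for 3: Hist1h1d at 4 h (61.0 CPM, others 70.4 to 75.2), Hist1h2bl at 4 h (8.17, others 11.8 to 13.6) and the noncoding row of Hist2h2bb in set 3+6 (15.5, others 23.1 to 27.5). Hist1h2ap was lowest of the 0 h libraries in number 2 (281.2 CPM, others 322.9 to 349.8). Hist1h2bg was lowest of set 3+6 in the library labelled 24 h, number 6 (70.8 CPM, others 84.7 to 89.3). The coding row of Hist2h2bb was highest of the 4 h libraries in number 3 (149.1 CPM, others 104.6 to 119.2).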

How the results depend on the processing

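Counts of called members between labelled times were 0 under every alternative run, the replicate block included. Leaving out 1 library gave 18 to 26 higher and 3 to 5 lower in 3+6 against 1+4, 16 to 26 and 5 to 9 in 2+5 against 1+4, and 8 to 16 and 8 to 11 in 3+6 against 2+5, the low values of 8 and 9 higher without number 3 at 24 h or number 2 at any time. With the number in place of the set (replicate block), the counts were 24 and 5, 23 and 8, and 13 and 12, and no call on the members with the largest rises and falls was lost. Without a filter, 14 were lower in 3+6 against 2+5. Under library totals, the counts were 10 and 1, 0 and 1, and 15 and 0; with the library labelled 24 h, number 5, also left out (chosen after the data were seen) 48 and 1 in 3+6 against 1+4 and 25 and 2 in 3+6 against 2+5. Signs turned under library totals for Hist1h1a (0.009) and Hist1h1d (0.022) in 3+6 against 1+4, which were 0.008 and 0.025 with that library left out, and for Hist1h4f (0.014) and Hist1h3e (0.025) in 3+6 against 2+5. Log2 differences of sums under library totals, for H1, H2A, H2B, H3, H4 and all members, were 0.135, 0.287, 0.299, 0.306, 0.256 and 0.273 in 3+6 against 1+4 (the same without that library, which is in neither set), -0.283, -0.118, -0.012, -0.021, 0.061 and -0.054 in 2+5 against 1+4, and 0.418, 0.405, 0.311, 0.327, 0.194 and 0.328 in 3+6 against 2+5 (0.233, 0.23, 0.129, 0.158, 0.018 and 0.152 without that library). All-member sums were -0.17 for 24 h against 0 h and -0.218 for 24 h against 4 h. Beyond the share of counts shown by library totals, the cause was not tested. Low totals limit genes such as Hist3h2ba, and read sharing limits single H2A and H3 rows.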
